A study of Rattus norvegicus with 12 samples.

Results

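The genes described here are those of cholesterol and fatty acid synthesis, of the sterol-sensing SREBP system and of cholesterol efflux, followed in rat vascular smooth muscle cells exposed to angiotensin II (Ang II), the vasoconstrictor peptide of the renin-angiotensin system. They were chosen by name, but with earlier results of these data known, so their counts below are no independent test. Of 41 listed genes, 39 had a probe set annotated with exactly 1 symbol, out of 14506 such genes on the array. Hmgcs1 and Srebf1 were not analysed here. The cells came from the aorta of Sprague-Dawley rats and are labelled differentiated. They were grown in 10% fetal bovine serum and kept without serum for 48 h. The 4 groups of 3 arrays (Affymetrix Rat Gene 1.0 ST) are untreated cells, called control, and cells given Ang II at 100 nM for 6, 12 or 24 h. These hours are those of the titles, while the text on treatment speaks of 1, 3 or 24 h. The 3 control arrays are labelled 0 h, so a difference from control can include that of a longer time in culture, and the 3 comparisons with control share those arrays. Replicates are called biological, but no label ties them to different rats or dishes, and the p-values measure the spread between arrays, which may be technical.

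Cholesterol is built from acetyl-CoA in the cytosol and the endoplasmic reticulum, first to mevalonate and its isoprenoid products, then through squalene and lanosterol to the sterol itself. SREBP transcription factors are held in the endoplasmic reticulum membrane by SCAP and the INSIG proteins while sterol is plentiful, and move to the nucleus to switch on synthesis genes when it is scarce. Fatty acid synthesis shares the acetyl-CoA supply and is driven by the same family of factors. LXR receptors work in the opposite sense: bound by oxidised sterols, they switch on the exporters ABCA1 and ABCG1 and the ubiquitin ligase gene Mylip, whose product removes lipoprotein receptors. The measured members were grouped by role into 6 mevalonate enzymes, 11 enzymes from squalene to cholesterol, 6 SREBP regulators and sterol transport genes, 11 fatty acid synthesis genes and 5 LXR and efflux genes.

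All values are the deposited log2 values, and differences are given on that log2 scale with the standard error (SE) of a limma fit to all 12 arrays. A gene is said to have risen or fallen only where its p-value, adjusted over all 14506 genes, was under 0.05. Arrays of 1 group correlated at 0.9975 to 0.9984 across genes, and no pair of arrays was identical. Within a group the members varied little, with a median SD of 0.045 and a largest SD of 0.16. The 9 measured smooth muscle markers had mean log2 values of 9.72 (Des) to 14.4 (Acta2), whereas the 7 endothelial, 8 leukocyte and 7 adipocyte markers reached at most 7.87, 8.0 and 6.91, and the 7 fibroblast markers spanned 7.09 to 11.39. Probe sets differ in binding, so these levels are no ranking of genes, and no detection call was used. As markers averaged by array, the smooth muscle list stood 0.05 to 0.09 above the control mean at 6 h, 0.15 to 0.18 at 12 h and 0.37 to 0.39 at 24 h. Of its 9 markers 4 rose and 3 fell at 6 h (18.6% and 17.2% of all genes), so that mean joins opposite changes. At 12 h 5 rose and 1 fell (13.3% and 13.3%), and at 24 h 8 rose and 0 fell (15.3% and 14.7%). The fibroblast list stood 0.37 to 0.45 below the control mean at 6 h, 0.41 to 0.45 below it at 12 h and 0.58 to 0.63 below it at 24 h. Of its 7 markers 5 were lower at each time (17.2%, 13.3% and 14.7% of all genes at 6, 12 and 24 h). These shifts ran beside the changes below, and their part in them was not tested. In bulk RNA, fewer cells of a type and less RNA per cell cannot be told apart.

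The proximal promoters of a few members are shown because most sterol enzyme genes moved together. RefSeq windows of 300 bases (GRCr8, 250 before to 50 after the gene start) were found for 31 of the 39 members. The CCAAT box, the letters bound by NF-Y, was present on either strand in 20 of the 31 (64.5%), against 37.5% of all 33469 windows. It was present in 4 of 5 windows of mevalonate enzymes, 7 of 9 of the enzymes from squalene to cholesterol, 3 of 5 of the SREBP and transport genes, 5 of 8 of the fatty acid genes and 1 of 4 of the LXR and efflux genes. The sterol regulatory element searched as TCACNCCAC was in 0 of 31 windows (1.12% of all windows). An exact pair of AGGTCA repeats with any 4 bases between them, a strict form of the LXR element, was in 0 of 31. Only 2 of all 33469 windows (0.00598%) held that pair. With letters this rare, 0 matches in 31 windows cannot show that the LXR element is absent. Inexact forms of these 2 elements were not searched, so their presence was not tested. The GC box GGGCGG was in 23 of 31 (74.2%, against 33.1% of all), and the E-box CACGTG in 5 of 31 (16.1%, against 6.42% of all). All 33469 windows were taken for these shares, not only those of the 14506 genes tested, so the compared sets are unlike. Whether the motifs are more common here than among the other measured genes was not tested. Both strands were searched for each motif, and matches of different motifs did not overlap in the members (0 overlaps). A match is a description of letters, not a bound site. In the 5 windows below, given 5′ to 3′ along the gene's strand, capitals mark CCAAT or its reverse complement.
Hsd17b7, a ketosteroid reductase of the sterol pathway, chr13:84722705-84723004, minus strand: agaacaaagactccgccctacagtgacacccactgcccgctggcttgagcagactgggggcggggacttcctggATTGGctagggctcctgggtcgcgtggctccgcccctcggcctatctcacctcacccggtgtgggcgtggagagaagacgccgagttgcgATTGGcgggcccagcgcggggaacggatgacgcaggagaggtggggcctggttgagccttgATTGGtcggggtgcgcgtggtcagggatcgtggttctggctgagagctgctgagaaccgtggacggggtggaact
Nsdhl, a sterol dehydrogenase that takes part in demethylation, chrX:155817110-155817409, plus strand: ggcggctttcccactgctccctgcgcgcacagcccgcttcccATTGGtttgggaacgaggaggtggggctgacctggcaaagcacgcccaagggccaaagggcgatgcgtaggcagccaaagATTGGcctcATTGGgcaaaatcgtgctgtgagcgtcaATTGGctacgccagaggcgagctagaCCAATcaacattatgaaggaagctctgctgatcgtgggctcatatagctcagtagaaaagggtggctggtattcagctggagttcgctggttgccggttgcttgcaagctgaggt
Mvd, the mevalonate pathway decarboxylase, chr19:67414925-67415224, minus strand: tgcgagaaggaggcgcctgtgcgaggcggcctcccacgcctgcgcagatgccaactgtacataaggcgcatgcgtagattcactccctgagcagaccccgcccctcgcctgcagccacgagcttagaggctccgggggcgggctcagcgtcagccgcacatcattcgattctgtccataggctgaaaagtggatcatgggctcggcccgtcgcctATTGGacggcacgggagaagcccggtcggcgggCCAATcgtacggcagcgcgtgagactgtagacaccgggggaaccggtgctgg
Fads1, a desaturase of polyunsaturated fatty acids, chr1:216252442-216252741, plus strand: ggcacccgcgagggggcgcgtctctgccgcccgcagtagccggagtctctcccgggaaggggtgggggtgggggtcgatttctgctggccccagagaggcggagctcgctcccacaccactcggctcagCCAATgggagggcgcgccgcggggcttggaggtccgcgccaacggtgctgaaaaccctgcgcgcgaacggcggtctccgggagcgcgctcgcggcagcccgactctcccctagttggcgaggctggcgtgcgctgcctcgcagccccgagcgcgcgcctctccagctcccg
Abca1, the exporter of cholesterol to apolipoprotein, chr5:72596424-72596723, minus strand: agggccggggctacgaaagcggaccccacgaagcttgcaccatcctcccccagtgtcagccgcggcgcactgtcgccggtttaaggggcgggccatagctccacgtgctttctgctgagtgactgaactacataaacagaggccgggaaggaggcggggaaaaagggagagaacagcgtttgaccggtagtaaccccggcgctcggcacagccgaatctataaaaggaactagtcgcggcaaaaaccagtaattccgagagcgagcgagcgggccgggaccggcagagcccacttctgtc
The Nsdhl window held 5 matches and that of Hsd17b7 held 3, Mvd had 2, Fads1 had 1, and that of Abca1 had 0. This order does not hold across the members. The windows of Acat2, Cyp51, Dhcr7, Scd and Fads2, which all rose at 12 h, had 0. That of Mylip, which fell at 6 h, had 2. Whether matches go with the response was not tested.

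Of the 28 sterol and fatty acid synthesis genes 26 had risen at 12 h of Ang II (13.3% of all genes did), the exceptions being Acss2 and Elovl5. At 24 h 5 of the 28 were above control, among them Tm7sf2 and Scd, 9 were below it and 14 did not pass (15.3% of all genes had risen and 14.7% fallen). Abca1 fell at 6 and 12 h. At 6 h 24 of 39 members had risen (18.6% of all genes did) and 6 had fallen (17.2% of all genes), with a median difference of 0.21, against 0.01 over all genes. At 12 h 31 had risen (13.3% of all genes) and 1 had fallen (13.3% of all genes), with a median of 0.39, against 0.01. At 24 h 7 had risen (15.3% of all genes) and 11 had fallen (14.7% of all genes), with a median of −0.05, against 0.05. Centring each array on its median turned this last split round, to 11 higher and 8 lower at 24 h. Without 1 array at a time the count lower at 6 h was 3 to 7 and lowest without control replicate 2 or Ang II 6 h replicate 2 (3 each). Passing rises of at least 1.5-fold numbered 6 members at 6 h (3.23% of all genes), 12 at 12 h (1.96% of all genes) and 0 at 24 h (1.59% of all genes). Passing falls of that size numbered 1 at 6 h (3.65% of all genes), 1 at 12 h (1.73% of all genes) and 1 at 24 h (2.29% of all genes), being Abca1 at 6 and 12 h and Insig1 at 24 h. The 3 Ang II arrays did not overlap the 3 control arrays in 34 members at 6 h (47.2% of all genes), 33 at 12 h (40.8% of all genes) and 25 at 24 h (44.8% of all genes). Over the 4 groups together 36 of 39 members differed (limma F test, 51.5% of all genes), and Elovl5, Nr1h2 and Nr1h3 did not pass.

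**Figure D1:**
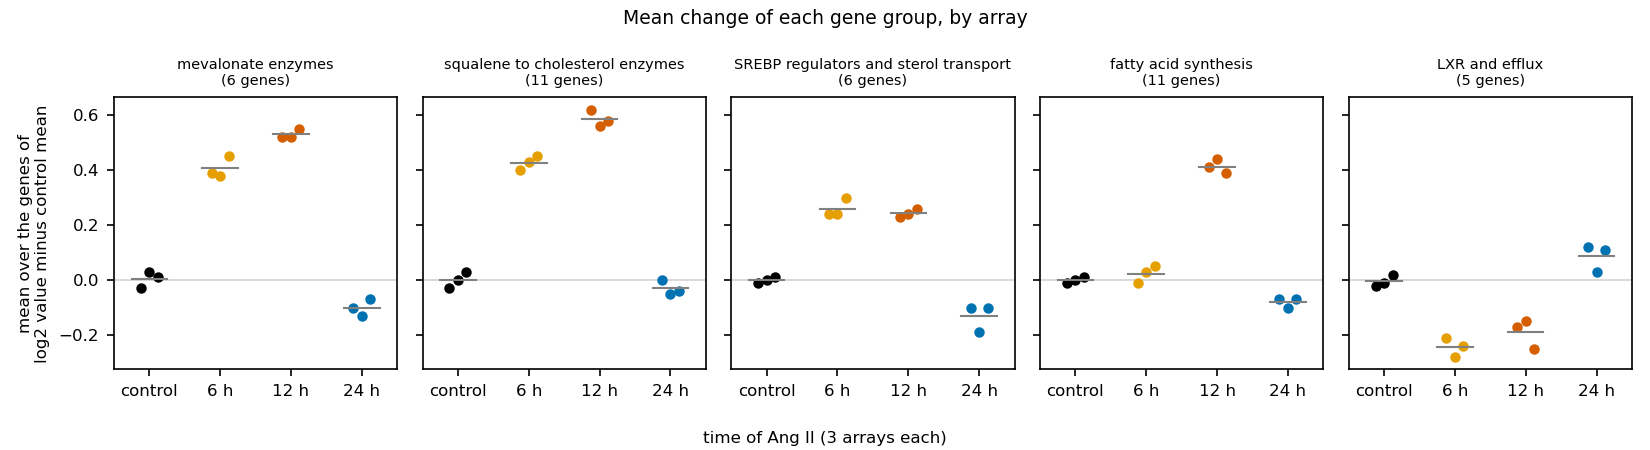
Mean over the genes of each group of the log2 value minus that gene's control mean, for each array (points, 3 per time, with their mean as a grey line), against time of Ang II. The mevalonate enzymes stand at 0.38 to 0.45 at 6 h and 0.52 to 0.55 at 12 h. The fatty acid genes stand at −0.01 to 0.05 at 6 h, a mean that joins rises and falls, and at 0.39 to 0.44 at 12 h. The mean of the LXR and efflux genes, in which Abca1 weighs most, stands at −0.28 to −0.21 at 6 h and −0.25 to −0.15 at 12 h.

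The group means differed in when they moved. Averaged by array, the enzymes from squalene to cholesterol stood 0.40 to 0.45 above the control mean at 6 h, 0.56 to 0.62 above it at 12 h, and −0.05 to 0.00 from it at 24 h. The fatty acid genes stood at −0.01 to 0.05 at 6 h, which overlaps the control arrays (−0.01 to 0.01), at 0.39 to 0.44 at 12 h and at −0.10 to −0.07 at 24 h. Their 6 h mean joins opposite changes, from −0.53 (Acss2) to 0.53 (Fasn). At that time 4 of the 11 had risen and 3 had fallen (18.6% and 17.2% of all genes). The SREBP and transport genes stood at 0.24 to 0.30 at 6 h, 0.23 to 0.26 at 12 h and −0.19 to −0.10 at 24 h. The LXR and efflux genes stood at −0.28 to −0.21 at 6 h, −0.25 to −0.15 at 12 h and 0.03 to 0.12 at 24 h. That mean is weighted by Abca1 (−0.95 at 6 h and −0.78 at 12 h), since the median of the 5 genes was −0.19 at 6 h, −0.10 at 12 h and 0.01 at 24 h, and Abcg1 lay above control at both early times (0.23 and 0.11, neither passing). Of the 5 genes 3 had fallen at 6 h (17.2% of all genes), 1 at 12 h (13.3%) and 0 at 24 h (14.7%), when 1 had risen (15.3%). For 5 genes the counts of 12 and 24 h are near those shares. These means describe the groups and carry no test. Single genes were tested between the times. From 6 to 12 h, 19 members rose (13.1% of all genes) and 2 fell (13.9% of all genes), of which 9 of 11 fatty acid genes rose, against 8 of 17 sterol enzymes (3 of 6 and 5 of 11 in their groups). From 12 to 24 h, 28 members fell (13.5% of all genes) and 2 rose (14% of all genes), with 15 of 17 sterol enzymes and 9 of 11 fatty acid genes among those that fell. Of these falls 16 were at least 1.5-fold (1.52% of all genes), as was 1 rise, that of Abca1 (0.917% of all genes). From 6 to 24 h, 25 members fell (19.8% of all genes) and 8 rose (19.4% of all genes), 10 of the falls being at least 1.5-fold (3.58% of all genes) and 1 of the rises, again that of Abca1 (2.91% of all genes). From 6 to 12 h, 2 rises were at least 1.5-fold (1.35% of all genes), those of Fads1 and Acss2, and 0 falls were (1.47% of all genes). Arrays of the compared times did not overlap in 25 members for 12 h against 6 h (39.3% of all genes), 31 for 24 h against 12 h (40.3% of all genes) and 35 for 24 h against 6 h (48.9% of all genes).

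The sterol synthesis enzymes rose at nearly every step. Of the 17 measured enzymes 15 had risen at 6 h (18.6% of all genes) and 17 at 12 h (13.3% of all genes). None had fallen at either time (0 and 0, against 17.2% and 13.3% of all genes), and the medians were 0.45 and 0.58. Hsd17b7 had log2 values of 10.21, 10.22 and 10.31 in control cells, 11.04, 11.12 and 11.12 at 6 h, 11.18, 11.09 and 11.15 at 12 h, and 10.39, 10.29 and 10.29 at 24 h. The arrays of 6 and 12 h lay wholly above those of control and of 24 h, which overlapped each other. It had the largest rise among the members at both early times, by 1.80-fold at 6 h and 1.86-fold at 12 h (0.89 ± 0.05, SE, n = 3 per group, adjusted p = 7.69e-08). At 24 h its difference was 0.08 ± 0.05 (adjusted p = 0.244). Sqle, the gene of squalene epoxidase, a rate-limiting oxygen-using step, had 11.11, 11.16 and 11.12 in control cells, 11.65, 11.71 and 11.76 at 6 h, 11.79, 11.74 and 11.69 at 12 h, and 10.75, 10.65 and 10.60 at 24 h. Its 24 h arrays were the lowest of all 12, and the 6 and 12 h arrays the highest. It rose by 0.58 ± 0.05 at 6 h and by 0.61 ± 0.05 at 12 h and fell below control by 0.46 on the log2 scale at 24 h (adjusted p = 2.97e-05). Dhcr7, which encodes a reductase of the last step to cholesterol, showed the same order, with 9.68, 9.66 and 9.70 in control cells, 10.09, 10.11 and 10.20 at 6 h, 10.35, 10.19 and 10.25 at 12 h, and 9.32, 9.25 and 9.11 at 24 h. It rose by 0.45 ± 0.06 at 6 h and 0.58 ± 0.06 at 12 h and fell by 0.46 at 24 h (adjusted p = 0.000127). The drop of Sqle from 12 to 24 h was 2.1-fold and that of Dhcr7 2.05-fold.

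Among the mevalonate enzymes, Acat2, the cytosolic thiolase that opens the pathway, had 11.24, 11.33 and 11.30 in control cells, 11.82, 11.83 and 11.97 at 6 h, 12.09, 12.07 and 12.06 at 12 h, and 11.06, 11.12 and 11.19 at 24 h. Its 12 h arrays were the highest, and it rose by 0.59 ± 0.05 at 6 h and 0.79 ± 0.05 at 12 h. Mvd rose by 0.68 ± 0.06 and 0.73 ± 0.06 at these times. Idi1, the isomerase of the isoprenoid building blocks, rose by 0.78 ± 0.05 and 0.70 ± 0.05. Fdps, which joins these blocks to farnesyl diphosphate, rose by 0.31 ± 0.06 at both times. Mvk, the mevalonate kinase gene, lagged: its difference was −0.12 ± 0.05 at 6 h (adjusted p = 0.0633, but 0.032 without Ang II 24 h replicate 1) and 0.20 ± 0.05 at 12 h (adjusted p = 0.00674). Pmvk, the next kinase, rose by 0.21 ± 0.07 at 6 h and 0.45 ± 0.07 at 12 h, and the earlier call was lost in 4 of 12 fits with 1 array left out (adjusted p at most 0.0966, without Ang II 6 h replicate 3). At 24 h Mvk fell below control by 0.27 (adjusted p = 0.000982). Acat2 (−0.16 ± 0.05, adjusted p = 0.031), Mvd (−0.21 ± 0.06, adjusted p = 0.0228) and Idi1 (−0.15 ± 0.05, adjusted p = 0.0446) also passed as lower at 24 h, but each lost this call when single arrays were left out. For Acat2 it was lost in 4 of 12 such fits (adjusted p at most 0.102, without control replicate 2). For Mvd it was lost in 4 (at most 0.0853, without Ang II 24 h replicate 2), and for Idi1 in 9 (at most 0.167, without control replicate 1).

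**Figure D2:**
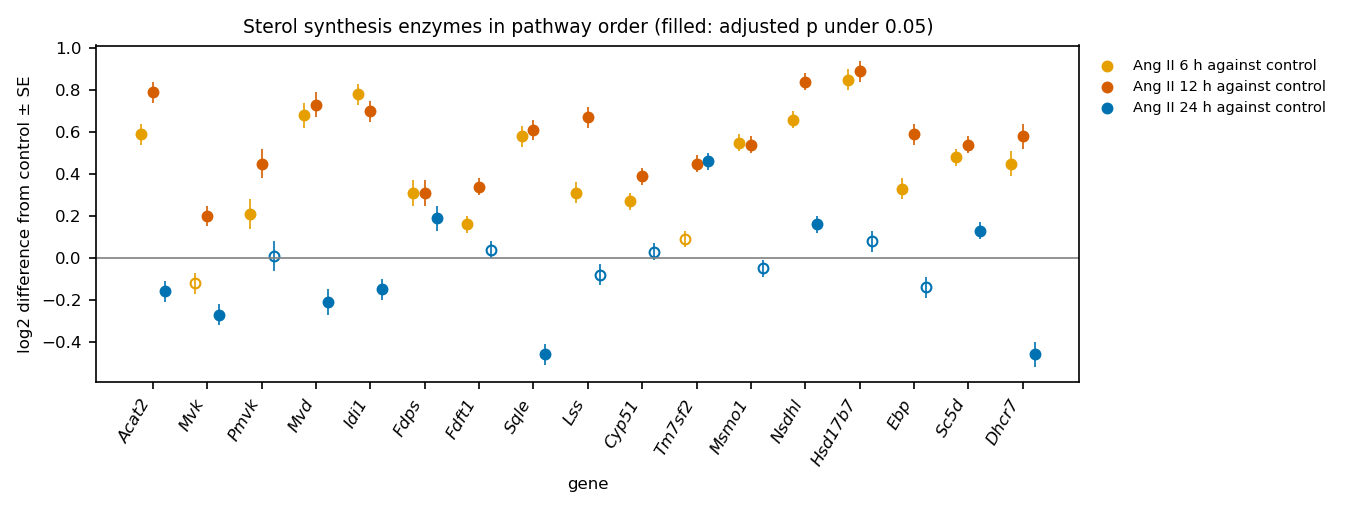
Log2 difference from control ± SE (vertical axis) of the 17 measured sterol synthesis enzymes in pathway order (horizontal axis) at 6, 12 and 24 h of Ang II; filled points passed at an adjusted p under 0.05. All 17 enzymes are above control at 12 h, Hsd17b7 most (0.89), whereas at 24 h Sqle and Dhcr7 are lowest (−0.46 each) and Tm7sf2 stays at 0.46.

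Between squalene and cholesterol, Nsdhl rose by 0.66 ± 0.04 at 6 h and 0.84 ± 0.04 at 12 h. Msmo1, a sterol methyl oxidase gene, rose by 0.55 ± 0.04 and 0.54 ± 0.04, and Sc5d, a sterol desaturase gene, by 0.48 ± 0.04 and 0.54 ± 0.04. Lss, the cyclase gene that makes lanosterol, rose by 0.31 ± 0.05 at 6 h and 0.67 ± 0.05 at 12 h, and the difference between these times also passed (0.37 ± 0.05, adjusted p = 0.000168). Ebp, a sterol isomerase gene, rose by 0.33 ± 0.05 and 0.59 ± 0.05, Cyp51, the lanosterol demethylase gene, by 0.27 ± 0.04 and 0.39 ± 0.04, and Fdft1, which encodes squalene synthase, by 0.16 ± 0.04 and 0.34 ± 0.04. Tm7sf2, a sterol reductase gene, followed another course. It had 9.31, 9.43 and 9.37 in control cells, 9.45, 9.46 and 9.47 at 6 h, 9.87, 9.80 and 9.80 at 12 h, and 9.83, 9.80 and 9.86 at 24 h. Its 12 and 24 h arrays overlapped and lay above all others, with a rise of 0.45 ± 0.04 at 12 h and 0.46 ± 0.04 at 24 h (adjusted p = 7.7e-06). The 24 h against 12 h difference was 0.01 ± 0.04 (adjusted p = 0.926). Of the 17 enzymes 4 were above control at 24 h (15.3% of all genes) and 6 below (14.7% of all genes), with 7 not passing. Besides Tm7sf2 those above were Fdps (0.19 ± 0.06), Nsdhl (0.16 ± 0.04) and Sc5d (0.13 ± 0.04), each losing the call when single arrays were left out. The adjusted p reached 0.133 for Fdps and 0.0564 for Nsdhl without control replicate 1, and 0.106 for Sc5d without control replicate 2. The call was lost in 5, 1 and 3 of 12 such fits for Fdps, Nsdhl and Sc5d.

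Of the 6 SREBP regulators and sterol transport genes 5 had risen at 6 h (18.6% of all genes) and 5 at 12 h (13.3%). At 24 h 1 had risen (15.3% of all genes) and 2 had fallen (14.7%), which for so few genes is near those shares. Srebf2, the gene of the SREBP form that mainly drives sterol genes, rose by 0.19 ± 0.04 at 6 h and 0.33 ± 0.04 at 12 h and was at 0.07 ± 0.04 at 24 h (adjusted p = 0.201). Scap, the gene of the escort protein, rose by 0.18 ± 0.04 at 6 h and 0.13 ± 0.04 at 12 h, the second call being lost in 5 of 12 fits with 1 array left out (adjusted p at most 0.0982, without Ang II 12 h replicate 1). Insig1, which encodes a retention protein and is itself a target of SREBP, had 12.73, 12.78 and 12.79 in control cells, 13.05, 13.02 and 13.09 at 6 h, 13.03, 13.08 and 13.07 at 12 h, and 12.08, 12.09 and 12.15 at 24 h. The 24 h arrays lay below every other array. It rose by 0.29 ± 0.04 at 6 h and 0.30 ± 0.04 at 12 h and fell below control by 0.65 at 24 h (1.57-fold, adjusted p = 3.03e-07), which was the largest fall of a member at 24 h. A second probe set for Insig1 gave 0.30, 0.31 and −0.78 at the 3 times. Insig2, its paralog, was at 0.00 ± 0.07 at 6 h (adjusted p = 0.978), rose by 0.27 ± 0.07 at 12 h (adjusted p = 0.0131) and was at 0.04 ± 0.07 at 24 h. The 12 h call was lost without control replicate 1 (adjusted p = 0.0506) or Ang II 12 h replicate 2 (adjusted p = 0.0519).

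Of the sterol transport genes, Stard4, which encodes a cytosolic sterol carrier, peaked earlier. It had 8.19, 8.19 and 8.18 in control cells, 8.42, 8.48 and 8.61 at 6 h, 8.22, 8.12 and 8.27 at 12 h, and 7.60, 7.59 and 7.63 at 24 h. The 6 h arrays lay above all others, the 12 h arrays around those of control, and the 24 h arrays below all others. It rose by 0.32 ± 0.05 at 6 h, was at 0.02 ± 0.05 at 12 h (adjusted p = 0.873) and fell by 0.58 at 24 h (adjusted p = 7.48e-06). The drop from 6 to 12 h also passed (−0.30 ± 0.05, adjusted p = 0.00119). Npc1, whose product releases cholesterol from lysosomes, had 9.98, 9.86 and 9.96 in control cells, 10.50, 10.57 and 10.51 at 6 h, 10.27, 10.37 and 10.37 at 12 h, and 10.32, 10.11 and 10.19 at 24 h. All its Ang II arrays lay above those of control, with rises of 0.59 ± 0.06, 0.40 ± 0.06 and 0.27 ± 0.06 (adjusted p = 0.00483 at 24 h).

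**Figure D3:**
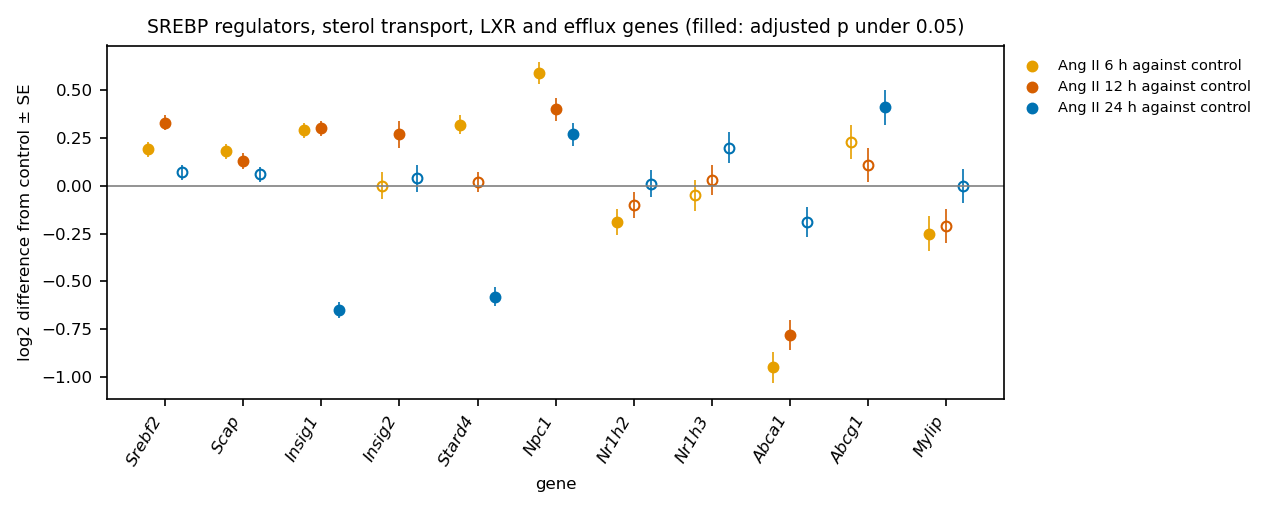
Log2 difference from control ± SE (vertical axis) of 6 SREBP and sterol transport genes and 5 LXR and efflux genes (horizontal axis) at 6, 12 and 24 h of Ang II; filled points passed at an adjusted p under 0.05. Insig1 and Stard4 drop to −0.65 and −0.58 at 24 h, and Abca1 is lowest at 6 h (−0.95).

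The fatty acid synthesis genes rose mainly at 12 h. At 6 h 4 of 11 had risen and 3 had fallen (18.6% and 17.2% of all genes). At 12 h 9 had risen and 0 fallen (13.3% and 13.3%), and at 24 h 1 had risen and 3 fallen (15.3% and 14.7%). For so short a list the 24 h counts are near the shares of all genes. The medians at 6, 12 and 24 h were 0.08, 0.37 and −0.09. In 10 of the 11 the highest group mean was that of 12 h. The 4 that had risen at 6 h were Fasn, Acly, Elovl5 and Fads2. Fasn, the fatty acid synthase gene, had 11.46, 11.50 and 11.52 in control cells, 11.98, 12.03 and 12.07 at 6 h, 12.08, 12.08 and 12.03 at 12 h, and 11.43, 11.40 and 11.37 at 24 h. Its 6 and 12 h arrays overlapped and lay above the rest, with rises of 0.53 ± 0.04 and 0.57 ± 0.04 (adjusted p = 7.68e-07 and 7.73e-07), and 24 h gave −0.09 ± 0.04 (adjusted p = 0.112). Acly, which makes cytosolic acetyl-CoA from citrate, rose by 0.28 ± 0.05 at 6 h and 0.61 ± 0.05 at 12 h. Acaca, the carboxylase gene of the committed step, was at 0.08 ± 0.04 at 6 h (adjusted p = 0.14), rose by 0.37 ± 0.04 at 12 h and fell by 0.18 at 24 h (adjusted p = 0.00609). Me1, the malic enzyme gene that supplies NADPH, was at 0.01 ± 0.05, 0.23 ± 0.05 and −0.10 ± 0.05, of which only the 12 h value passed. Acss2, which makes acetyl-CoA from acetate, fell by 0.53 at 6 h (1.44-fold, adjusted p = 0.000103) and was at 0.08 ± 0.07 at 12 h and −0.08 ± 0.07 at 24 h, neither passing.

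Of the genes that desaturate and elongate fatty acids, Fads1, Fads2, Scd and Elovl6 had their highest mean at 12 h. Fads1 had 11.31, 11.30 and 11.34 in control cells, 11.03, 11.16 and 11.12 at 6 h, 12.15, 12.12 and 12.12 at 12 h, and 11.21, 11.28 and 11.28 at 24 h. The 6 h arrays lay below, and the 12 h arrays well above, all arrays of the other groups. Fads1 fell by 0.22 at 6 h (adjusted p = 0.00192) and rose by 0.81 ± 0.04 at 12 h (adjusted p = 8.59e-08). At 12 h against 6 h it was 2.04-fold higher (1.03 ± 0.04, adjusted p = 3.68e-08), and 24 h against control gave −0.06 ± 0.04 (adjusted p = 0.314). Fads2, the partner desaturase, had 11.69, 11.67 and 11.70 in control cells, 11.77, 11.81 and 11.78 at 6 h, 12.31, 12.25 and 12.27 at 12 h, and 11.72, 11.76 and 11.74 at 24 h. Its 12 h arrays stood apart from all others, with a rise of 0.59 ± 0.04 at 12 h. At 6 h its rise of 0.10 ± 0.04 (adjusted p = 0.0471) was lost in 10 of 12 fits with 1 array left out (adjusted p at most 0.13, without Ang II 6 h replicate 2). Scd, which puts the first double bond into saturated fatty acids, had 10.61, 10.62 and 10.61 in control cells, 10.65, 10.77 and 10.72 at 6 h, 11.27, 11.33 and 11.10 at 12 h, and 10.88, 10.95 and 10.96 at 24 h. It was at 0.10 ± 0.06 at 6 h (adjusted p = 0.249), rose by 0.62 ± 0.06 at 12 h and was the fatty acid gene still above control at 24 h (0.32 ± 0.06, adjusted p = 0.00156). Elovl6, which lengthens palmitate, was at −0.03 ± 0.04 at 6 h, rose by 0.27 ± 0.04 at 12 h and fell by 0.25 at 24 h (adjusted p = 0.000548). Elovl5, the elongase of polyunsaturated fatty acids, had differences of 0.13 ± 0.04, 0.05 ± 0.04 and 0.05 ± 0.04, and its 6 h call was lost in 4 of 12 fits with 1 array left out (adjusted p at most 0.0928, without control replicate 2). Lpin1, a phosphatidate phosphatase gene, had 7.50, 7.69 and 7.58 in control cells, 7.40, 7.29 and 7.44 at 6 h, 7.90, 7.93 and 7.96 at 12 h, and 7.20, 7.14 and 7.24 at 24 h. It rose by 0.34 ± 0.06 at 12 h and fell by 0.40 at 24 h (adjusted p = 0.00027). Its fall of 0.21 at 6 h was lost without control replicate 2 (adjusted p = 0.0566) or Ang II 6 h replicate 2 (adjusted p = 0.0539).

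**Figure D4:**
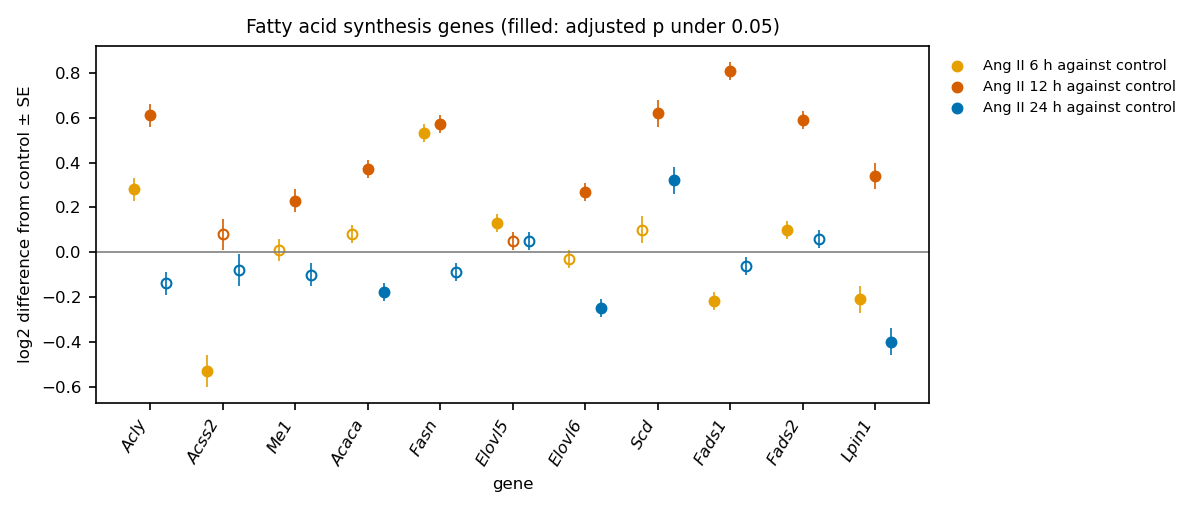
Log2 difference from control ± SE (vertical axis) of 11 fatty acid synthesis genes (horizontal axis) at 6, 12 and 24 h of Ang II; filled points passed at an adjusted p under 0.05. Fads1 is highest at 12 h (0.81) and below control at 6 h (−0.22), and Acss2 is lowest at 6 h (−0.53).

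In the LXR and efflux group Abca1 fell while the synthesis genes rose. Of the 5 genes only 1, Nr1h2, had a mean level at or above the median of all genes (8). Those of Abcg1 (7.15), Nr1h3 (7.1), Abca1 (7.53) and Mylip (7.79) were no higher than the highest endothelial and leukocyte markers. How far such values stand above background was not tested. Abca1 had 7.99, 8.01 and 8.03 in control cells, 7.12, 6.96 and 7.10 at 6 h, 7.28, 7.33 and 7.08 at 12 h, and 7.93, 7.68 and 7.84 at 24 h. The 6 and 12 h arrays lay below all arrays of control and of 24 h. It fell 1.93-fold at 6 h (−0.95 ± 0.08, adjusted p = 1.28e-06) and 1.71-fold at 12 h (−0.78 ± 0.08, adjusted p = 1.27e-05). At 24 h it was at −0.19 ± 0.08 (adjusted p = 0.0856), a value that passed without Ang II 24 h replicate 1 (−0.24, adjusted p = 0.0449). From 12 to 24 h Abca1 rose by 0.59 ± 0.08 (adjusted p = 0.000163). Abcg1, the exporter to high-density lipoprotein, had 6.86, 6.97 and 7.05 in control cells, 7.10, 7.33 and 7.14 at 6 h, 7.21, 7.04 and 6.98 at 12 h, and 7.19, 7.42 and 7.50 at 24 h. Its 24 h arrays lay above those of control and it rose by 0.41 ± 0.09 (adjusted p = 0.00633). Against control it was at 0.23 ± 0.09 at 6 h (adjusted p = 0.0798, but 0.0469 without Ang II 24 h replicate 1) and 0.11 ± 0.09 at 12 h (adjusted p = 0.442). Mylip was at −0.25 ± 0.09 at 6 h (adjusted p = 0.042), −0.21 ± 0.09 at 12 h (adjusted p = 0.104) and 0.00 ± 0.09 at 24 h. Of the LXR genes themselves, Nr1h2 was at −0.19 ± 0.07, −0.10 ± 0.07 and 0.01 ± 0.07, and Nr1h3 at −0.05 ± 0.08, 0.03 ± 0.08 and 0.20 ± 0.08, the last passing without control replicate 1 (0.28, adjusted p = 0.0222). The 6 h call of Mylip was lost in 7 of 12 fits with 1 array left out (adjusted p at most 0.16, without Ang II 6 h replicate 2). That of Nr1h2 (adjusted p = 0.0456) was lost in 8 of 12 (at most 0.178, without control replicate 2).

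**Figure D5:**
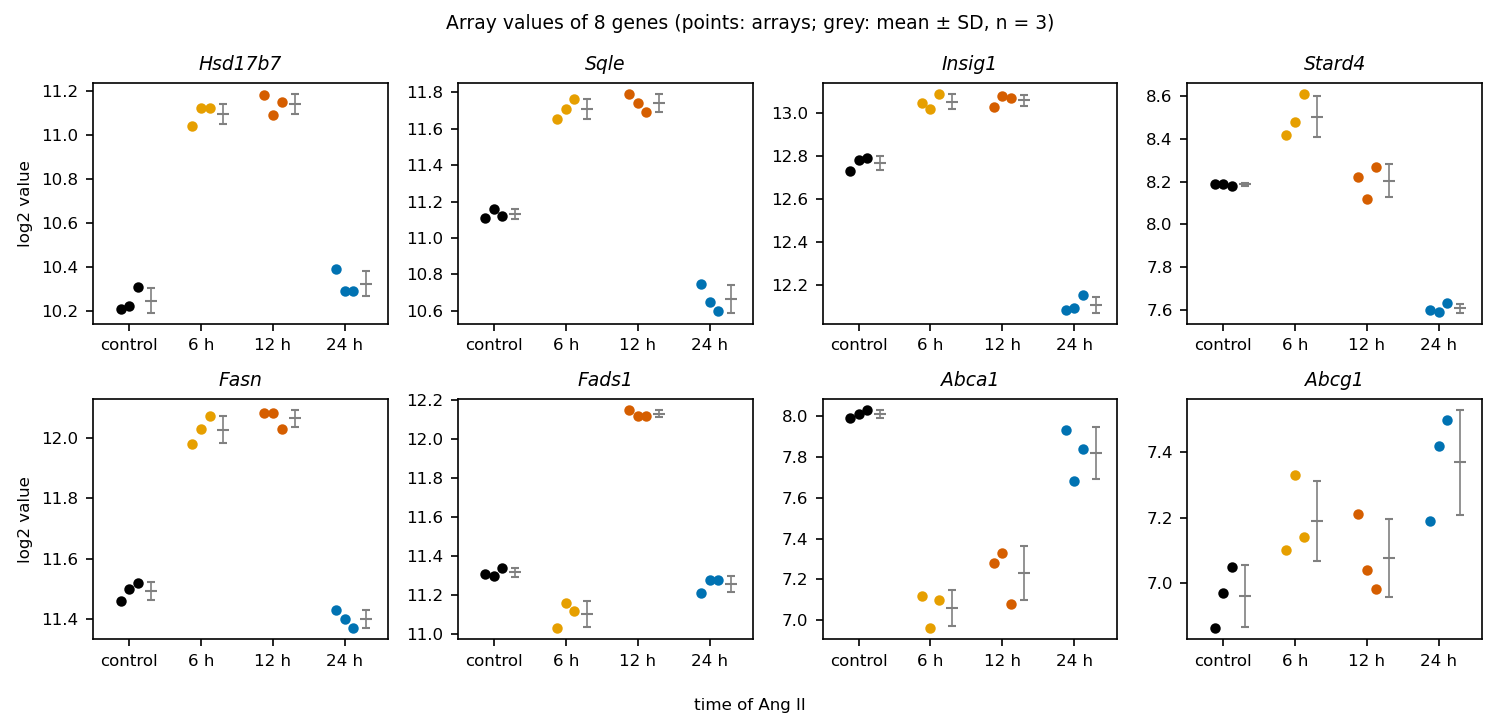
Log2 values of 8 members (vertical axes, each panel with its own range) on the 12 arrays against time of Ang II, with the mean ± SD of the 3 arrays in grey. Hsd17b7, Sqle and Fasn are high at 6 and 12 h, Fads1 at 12 h alone (12.12 to 12.15), and Abca1 is low at 6 and 12 h (6.96 to 7.33).

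Crossing from above to below control was read gene by gene from the calls at 2 times. Where both calls pass with opposite signs, the difference between the times is nearly bound to pass, so it adds little. Of the members 10 had risen at 12 h and fallen at 24 h with a passing difference between these times, namely the sterol enzymes Acat2, Mvk, Mvd, Idi1, Sqle and Dhcr7, the regulator Insig1 and the fatty acid genes Acaca, Elovl6 and Lpin1. Between 6 and 24 h 7 did so: Acat2, Mvd, Idi1, Sqle, Dhcr7, Insig1 and Stard4. The opposite order, a fall followed by a rise, was seen between 6 and 12 h in Fads1 and Lpin1 (2 members). How many of all genes crossed control in these ways was not counted. The 10, 7 and 2 members therefore have no share to be read against. Of the 11 members lower at 24 h than in control, 8 kept that call whichever single array was left out, and the other 3 were Acat2, Idi1 and Mvd.

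Other genes of these pathways were taken from 4 lists, whose counts are to be read against the shares of all genes, 18.6% higher and 17.2% lower at 6 h, 13.3% and 13.3% at 12 h, and 15.3% and 14.7% at 24 h. Of 18 other sterol pathway genes 6 had risen and 5 fallen at 6 h, 4 and 4 at 12 h, and 2 and 3 at 24 h, the last near the shares of all genes. Their median differences were 0.00, 0.08 and 0.01. Soat1, which esterifies cholesterol for storage, had 10.36, 10.33 and 10.34 in control cells, 11.02, 11.05 and 11.10 at 6 h, 10.69, 10.68 and 10.65 at 12 h, and 10.38, 10.26 and 10.42 at 24 h. Its 6 h arrays were the highest, and it rose by 0.71 ± 0.05 at 6 h and 0.33 ± 0.05 at 12 h. Scarb1, the receptor gene for high-density lipoprotein, rose by 0.39 ± 0.05 and 0.54 ± 0.05 at these times. Mbtps2, the protease gene that releases SREBP from the membrane, fell by 0.42, 0.43 and 0.19 at the 3 times, and Gramd1a, a sterol transfer protein gene, by 0.20 and 0.46 at 6 and 12 h. Of 26 other fatty acid and glycerolipid genes 15 had risen and 2 fallen at 6 h (18.6% and 17.2% of all genes), 11 and 1 at 12 h (13.3% and 13.3%), and 5 and 3 at 24 h (15.3% and 14.7%), the last again near the shares of all genes. Their medians were 0.22, 0.07 and 0.06. Fads3, a relative of the desaturases, rose by 0.80 ± 0.04 at 6 h and 0.54 ± 0.04 at 12 h. Agpat2, an acyltransferase gene of glycerolipid synthesis, rose by 0.73 ± 0.04 at 6 h, with 0.07 ± 0.04 at 12 h (adjusted p = 0.246). Dgat1, which completes triglycerides, rose by 0.64 ± 0.05, 0.21 ± 0.05 and 0.26 ± 0.05 at the 3 times, and Dgat2 by 0.24 ± 0.06 at 6 h and 0.64 ± 0.06 at 24 h.

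Of 19 fatty acid oxidation genes 3 had risen and 7 fallen at 6 h (18.6% and 17.2% of all genes), 3 and 6 at 12 h (13.3% and 13.3%), and 3 and 4 at 24 h (15.3% and 14.7%), with the rises near the share of all genes at each time. Their medians were −0.07, −0.03 and 0.02. Cpt1a, the gate of mitochondrial fatty acid import, fell by 0.58 at 6 h (adjusted p = 1.55e-05) and was at 0.06 ± 0.06 at 24 h. Its fall of 0.19 at 12 h was lost in 6 of 12 fits with 1 array left out (adjusted p at most 0.162, without Ang II 12 h replicate 1). Hadh, a dehydrogenase of beta-oxidation, fell by 0.60, 0.65 and 0.29 at the 3 times, the last lost in 3 of 12 fits with 1 array left out (adjusted p at most 0.0847, without control replicate 2). Echs1, the hydratase gene, fell by 0.41, 0.27 and 0.35, and Ucp2, a mitochondrial carrier gene, by 0.38 at 24 h. Of 9 other LXR-responsive and efflux genes 1 had risen and 3 fallen at 6 h (18.6% and 17.2% of all genes), 3 and 3 at 12 h (13.3% and 13.3%), and 4 and 2 at 24 h (15.3% and 14.7%). Their medians were −0.12, −0.06 and 0.10. Abcg4, an exporter related to Abcg1, had 8.86, 8.90 and 8.96 in control cells, 8.88, 8.68 and 8.70 at 6 h, 9.77, 9.75 and 9.89 at 12 h, and 10.27, 10.23 and 10.24 at 24 h. It rose by 0.90 ± 0.06 at 12 h and 1.34 ± 0.06 at 24 h (2.53-fold, adjusted p = 2.55e-08). Abca7 rose by 0.35 ± 0.05, 0.55 ± 0.05 and 0.67 ± 0.05 at the 3 times. Rxra, the gene of the LXR partner receptor, fell by 0.52 at 6 h and 0.28 at 24 h. Its fall of 0.15 at 12 h was lost in 4 of 12 fits with 1 array left out (adjusted p at most 0.128, without Ang II 12 h replicate 1). Smpdl3a, an LXR-responsive phosphodiesterase gene, fell by 0.30 at 12 h and 0.43 at 24 h.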

How the data were processed

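Total RNA of 12 samples, extracted with Trizol and labelled from 100 ng per the labels' protocols, was measured on 1 Affymetrix Rat Gene 1.0 ST array each. The submitters' processing notes name RMA and Partek for the log2 values that the authors deposited, with versions, background settings, filters and build not given in the sources used here. Of 29214 rows, 15310 had 1 gene symbol, 323 several and 13581 none, and a gene with several probe sets was represented by that of highest mean, which left 14506 genes. Groups follow the sample titles.

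limma 3.58.1 (R 4.3.3) was fitted with 4 group means to all 12 arrays, with 8 residual and 3.37 prior degrees of freedom, Benjamini-Hochberg adjustment over all genes and two-sided tests. The members and lists were chosen with earlier results of these data known. Members may all be named, and of each other list at most 4 genes with the largest passing change from control. In simulated data for Ang II 24 h against control over 14506 genes, 50 genes were set to change at each fold. The fit recovered 54% of those changed 1.25-fold, 90% at 1.5-fold, and called 11 unchanged genes. Far more genes passed in the data themselves, so these rates need not hold there. Alternatives were the 2 groups alone, the replicate number as a block, each array left out, genes of at least median level, every probe set in the adjustment, probe sets averaged per gene, quantile normalization, median centring, a trended robust variance, no moderation and array weights. No read depth exists for arrays, and their number limits the precision (median SE of a log2 difference 0.0667).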

Additional observations from a re-analysis of the deposited data

Results flagged for a closer look

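The members whose change from control differed between Ang II times, by a passing test of the difference and either 1.5-fold or opposite calls, gave 34 items. The share of all genes that this rule would flag was not computed. Values are log2 differences, the later time minus the earlier. At 12 h against 6 h, Fads1 (1.03), Acss2 (0.61) and Lpin1 (0.55) were higher, and Fads1 and Lpin1 had passed as lower than control at 6 h and higher at 12 h. At 24 h against 12 h, the sterol enzymes Sqle (−1.07), Dhcr7 (−1.04), Acat2 (−0.95), Mvd (−0.94), Idi1 (−0.85), Hsd17b7 (−0.81), Lss (−0.75), Ebp (−0.73), Nsdhl (−0.68), Msmo1 (−0.59) and Mvk (−0.47) were lower. In the same comparison Insig1 (−0.95), Stard4 (−0.59), Fads1 (−0.87), Acly (−0.75), Lpin1 (−0.73), Fasn (−0.66), Acaca (−0.55) and Elovl6 (−0.52) were lower, and Abca1 (0.59) was higher. At 24 h against 6 h, Sqle (−1.04), Idi1 (−0.93), Dhcr7 (−0.91), Mvd (−0.89), Hsd17b7 (−0.77), Acat2 (−0.75), Msmo1 (−0.60), Insig1 (−0.95), Stard4 (−0.89) and Fasn (−0.63) were lower, and Abca1 (0.76) was higher. The opposite calls of Acat2, Mvd and Idi1 rest on 24 h values that lost their call when single arrays were left out, and that of Lpin1 at 12 h against 6 h on a 6 h value that did so too (adjusted p at most 0.0566, without control replicate 2). Groups of 3 arrays are too small for a test of outlying arrays.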

How the results depend on the processing

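Of 234 results for single members (39 in 6 comparisons), 52 changed their side of the threshold under 1 or more of the alternatives and 0 of those alternatives reversed a call. The counts of members that moved by over 1.5 times were these. Centring each array on its median gave 11 rather than 7 members higher at 24 h than in control. It also gave 8 rather than 11 lower, a move within 1.5 times. Restricting the test to genes at or above the median level drops 5 of the members, Lpin1, Nr1h3, Abca1, Abcg1 and Mylip. It gave 0 members lower at 12 h than in control. It also gave 0 rather than 2 higher at 24 h than at 12 h, and 5 rather than 8 higher at 24 h than at 6 h. Fitting the 2 groups alone gave 1 and 5 for the last pair of counts, and no moderation of the variance gave 1 and 5. All probe sets in the adjustment gave 1 rather than 2 members higher at 24 h than at 12 h and 1 rather than 2 lower at 12 h than at 6 h. With the replicate block, 1 rather than 2 was lower at 12 h than at 6 h, and 7 of the 234 single results lost their call. Same-numbered arrays of different groups deviated together by r = −0.103 to 0.299 over 18 pairs, and differently numbered ones by −0.28 to 0.257. These ranges overlap, but 7 of 12 arrays were closest to their own number. Whether the numbers pair the arrays is therefore not settled, and the main fit did not pair them. The cause of these moves was not tested, apart from the filter, which removes genes.

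Leaving out each array in turn gave 21 to 25 members higher and 3 to 7 lower at 6 h than in control, 29 to 31 and 1 to 1 at 12 h, and 5 to 7 and 8 to 12 at 24 h. It gave 17 to 19 higher and 1 to 2 lower at 12 h than at 6 h, 1 to 2 higher and 27 to 28 lower at 24 h than at 12 h, and 5 to 8 higher and 19 to 25 lower at 24 h than at 6 h. Of the F test's 36 members 34 to 36 passed. The count of 3 lower at 6 h came without control replicate 2 or Ang II 6 h replicate 2. The count of 1 lower at 12 h than at 6 h came without any Ang II 6 h array or Ang II 12 h replicate 1 or 2. The count of 1 higher at 24 h than at 12 h came without control replicate 2, Ang II 12 h replicate 2 or 3, or Ang II 24 h replicate 2 or 3, and that of 5 higher at 24 h than at 6 h without Ang II 6 h replicate 2 or Ang II 24 h replicate 3. The F test has no value with 2 groups alone. With 3 arrays a group, changes well under 1.5-fold can be missed. How often is not known, since the simulation set far fewer genes to change than passed here.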
